A study of Mus musculus with 12 samples.

Results

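The response of cultured *Ifnb*-/- neurons to IFN-β was taken as the difference between *Ifnb*-/- cultures given IFN-β and *Ifnb*-/- cultures left untreated, over all genes. This comparison uses 6 of the 12 arrays of the study, 3 in each group, and 18193 genes, each read from the brightest of the probe sets assigned to it and to no other gene. The cultures were cerebellar granule neurons (CGNs), which are small glutamatergic neurons of the cerebellum, prepared from B10.RIII pups of 7 days and kept for 3 days in culture. The *Ifnb*-/- mice lack the gene for IFN-β in every cell. Treated cultures received 100 U/ml recombinant IFN-β for the last 24 hr, and untreated cultures received none. The other 6 arrays come from *Ifnb*+/+ cultures with and without the same treatment, and are used here for the estimate of spread and for comparison. Cultures were made in triplicate, and the sources used here do not say whether the 3 came from separate litters, so p-values measure only the spread between these cultures.

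IFN-β is a type I interferon that binds the receptor IFNAR1/IFNAR2 on nearly every cell type, neurons included. The kinases JAK1 and TYK2 on the receptor then phosphorylate STAT proteins, and STAT2 and IRF9 are subunits of the complex ISGF3, which binds the interferon-stimulated response element (ISRE) in promoters of interferon-stimulated genes. Many of the encoded proteins block viral replication or present antigen, and others, such as USP18 and SOCS1, shut the signal off again.

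The targeted gene itself could not serve as a check of the genotype. *Ifnb1* read 2.87, 2.75 and 2.48 (log2 intensity) on the untreated *Ifnb*-/- arrays, 2.98, 3.06 and 2.80 on the treated ones, and 2.56 to 2.79 on the *Ifnb*+/+ arrays, so it was near the bottom of the scale in both genotypes. The cell type label was checked against 19 measured markers of granule neurons, whose mean log2 intensity was 8.85 to 8.93 on untreated and 8.75 to 8.95 on treated *Ifnb*-/- arrays, with *Neurod1*, *Zic1* and *Cbln1* among them. Their summed intensity was 30700 to 33400 on untreated and 26800 to 28600 on treated arrays. Markers of astrocytes, microglia, oligodendrocytes and meningeal fibroblasts were also measured above a log2 intensity of 5 on untreated arrays, for 13 of 16, 20 of 27, 10 of 14 and 9 of 12 members. The microglia markers *Cx3cr1*, *P2ry12* and *Tmem119* were low on the *Ifnb*-/- arrays, at 2.52 to 4.55. Others were bright there, such as *Lyz2* at 9.68 to 10.85 and *Tyrobp* at 8.56 to 9.25.

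Replicate 2 of the treated *Ifnb*-/- cultures stood apart from replicates 1 and 3. Its correlation with them across genes was 0.985 and 0.987, against 0.997 between those replicates, and 380 genes on it were at least 2-fold above and 98 at least 2-fold below the mean of the others. It was high in glial and cell cycle genes, of which those named here were chosen after their values were seen. Of 16 markers of astrocytes and Bergmann glia, 13 were highest on this array, and their median lay 1.01 log2 units above the untreated mean, against 0.03 and -0.05 on treated replicates 1 and 3. The median of all genes on this array was 0.03. The share of all genes that were highest on it was not computed, so such counts stand without that background. The glial genes *Slc1a3*, a glutamate transporter, and *Tnc*, a matrix protein, read 10.21 and 9.53 on it, against 7.97 and 7.72, and 5.74 and 5.51, on the other treated arrays. The proliferation marker *Mki67* read 7.46, against 4.19 to 4.49 on the other 5 *Ifnb*-/- arrays, and 27 of 34 cell cycle genes were highest there. *Xist*, the RNA that coats the inactive X chromosome, read 4.34 on this array and 9.37 to 10.79 on the other 5. The Y-linked gene *Kdm5d* read 3.45 and 3.52 on treated replicates 1 and 3, 5.25 on treated replicate 2 and 5.16 to 5.28 on the untreated arrays. Counts are therefore given below with all arrays and, where they differ, without this one. The part of these differences in the results was not tested.

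**Figure D1:**
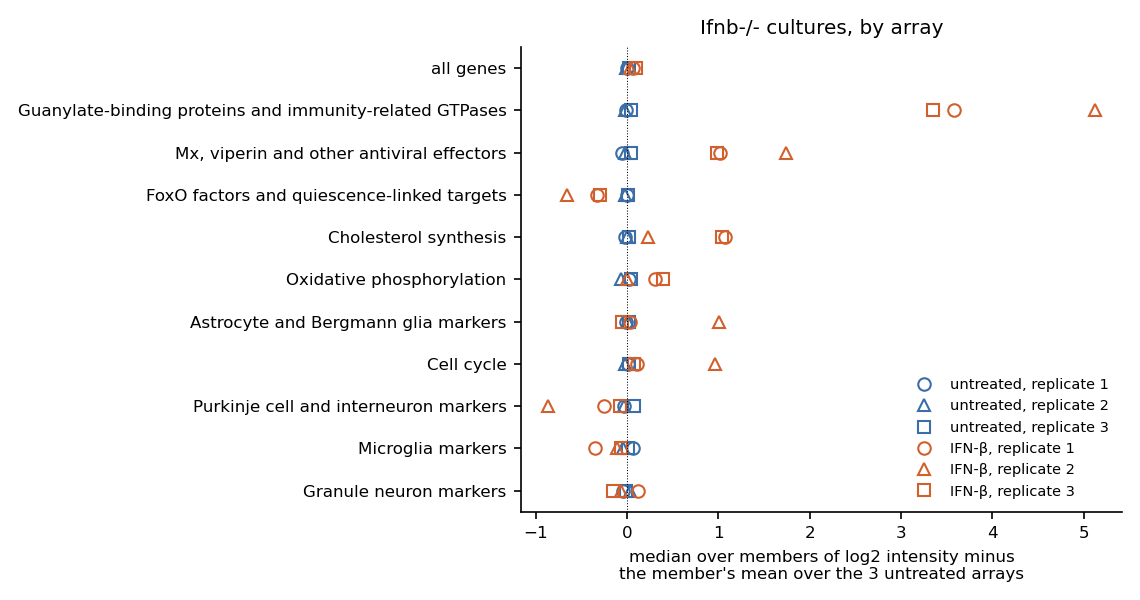
Median over the members of a gene list of log2 RMA intensity minus the member's mean over the 3 untreated *Ifnb*-/- arrays (x axis, log2 units), one symbol per *Ifnb*-/- array, blue for untreated and orange for IFN-β. Treated replicate 2 (triangle) lies apart for astrocyte markers (1.01), cell cycle genes (0.96) and cholesterol synthesis (0.23, against 1.07 and 1.04), while all 3 treated arrays lie far above the untreated ones for guanylate-binding proteins and immunity-related GTPases.

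With IFN-β, 169 genes were higher and 135 were lower in *Ifnb*-/- CGNs at an adjusted p under 0.05 from limma, which is 0.929% and 0.742% of the 18193 genes tested, or 1.67% together. The rises were far larger than the falls. Of the genes that rose, 110 changed at least 2-fold, 58 at least 4-fold and 16 at least 16-fold, with a median log2 fold change of 1.31. Of those that fell, 37 changed at least 2-fold and 1, the chemokine gene *Cxcl2*, at least 4-fold, with a median of -0.77. The treated and untreated arrays of all 304 called genes did not overlap, which held for 32.9% of all genes tested. Without treated replicate 2, 137 genes were higher and 64 lower (0.753% and 0.352%), of which 102 and 51 were shared with the calls from all arrays. The fit takes its spread from all 12 arrays, and with the 6 *Ifnb*-/- arrays alone, whose untreated group had the smallest spread of the 4 groups (median SD of genes 0.0872, against 0.201 in untreated *Ifnb*+/+), 645 genes were higher and 631 lower, among them 168 of the 169 and 134 of the 135. The median of all genes lay 0.07 log2 units above 0. With each array centred on its median over genes, the split was 144 higher and 223 lower.

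**Figure D2:**
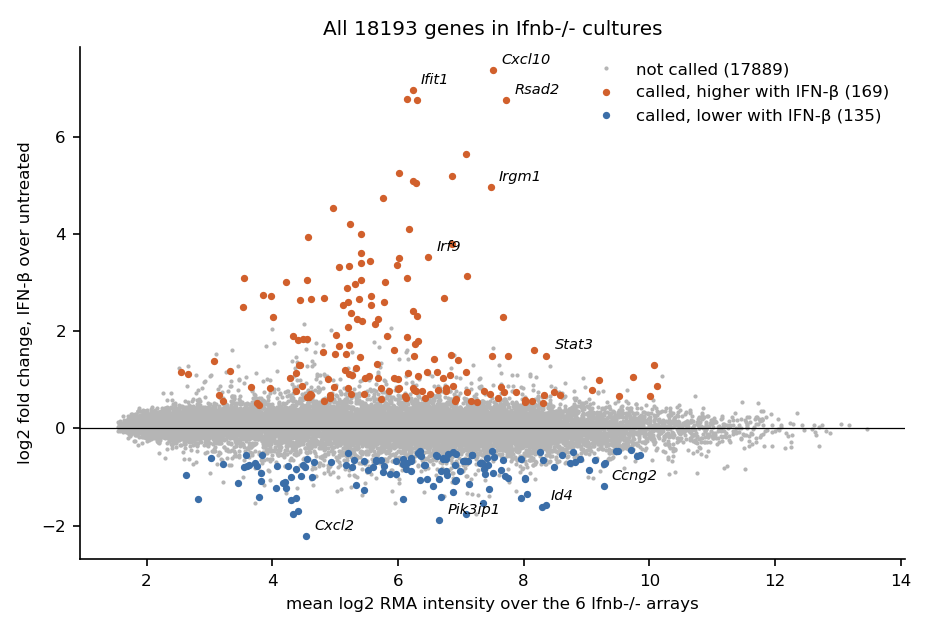
Log2 fold change with IFN-β (y axis) against mean log2 RMA intensity over the 6 *Ifnb*-/- arrays (x axis) for all 18193 genes, one point per gene. The 169 called genes that rose (orange) reach 7.37, while the 135 that fell (blue) reach -2.21.

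The largest rises were in antiviral and interferon-stimulated genes that were close to the bottom of the scale without IFN-β. *Cxcl10*, which encodes a chemokine that draws in T cells, read 3.96, 3.81 and 3.71 on the untreated arrays and 10.90, 11.80 and 10.89 with IFN-β. It had the largest change of all genes, at 7.37 log2 units (standard error [SE] 0.29, adjusted p = 1.64e-07). *Ifit1*, whose product binds viral RNA that lacks the host cap, read 2.65, 2.69 and 2.92, and 9.36, 10.26 and 9.53 with IFN-β, a log2 fold change of 6.96 (SE 0.34, adjusted p = 8.57e-07). In both genes replicate 2 was the highest of the treated arrays, and each treated array lay more than 6 log2 units above every untreated one. *Usp18*, which encodes the protease that removes ISG15 from proteins and blocks the receptor, read 2.69, 2.62 and 2.94, and 9.57, 9.54 and 9.48 with IFN-β. Its treated arrays were nearly alike (SD 0.04, n = 3), and replicate 2 did not stand out for this gene. *Rsad2* (viperin), which makes a chain-terminating nucleotide from CTP, rose from 4.35 ± 0.12 (SD, n = 3) to 11.09 ± 0.51, by 6.75 log2 units. *Iigp1*, an immunity-related GTPase that attacks the vacuoles of intracellular parasites, rose by 6.76, from 2.93 ± 0.18 to 9.69 ± 0.97. The 15 largest rises ranged down to 4.11 for *Rtp4*, and all 15 were also called without treated replicate 2, with log2 fold changes of 3.69 to 7.07.

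**Figure D3:**
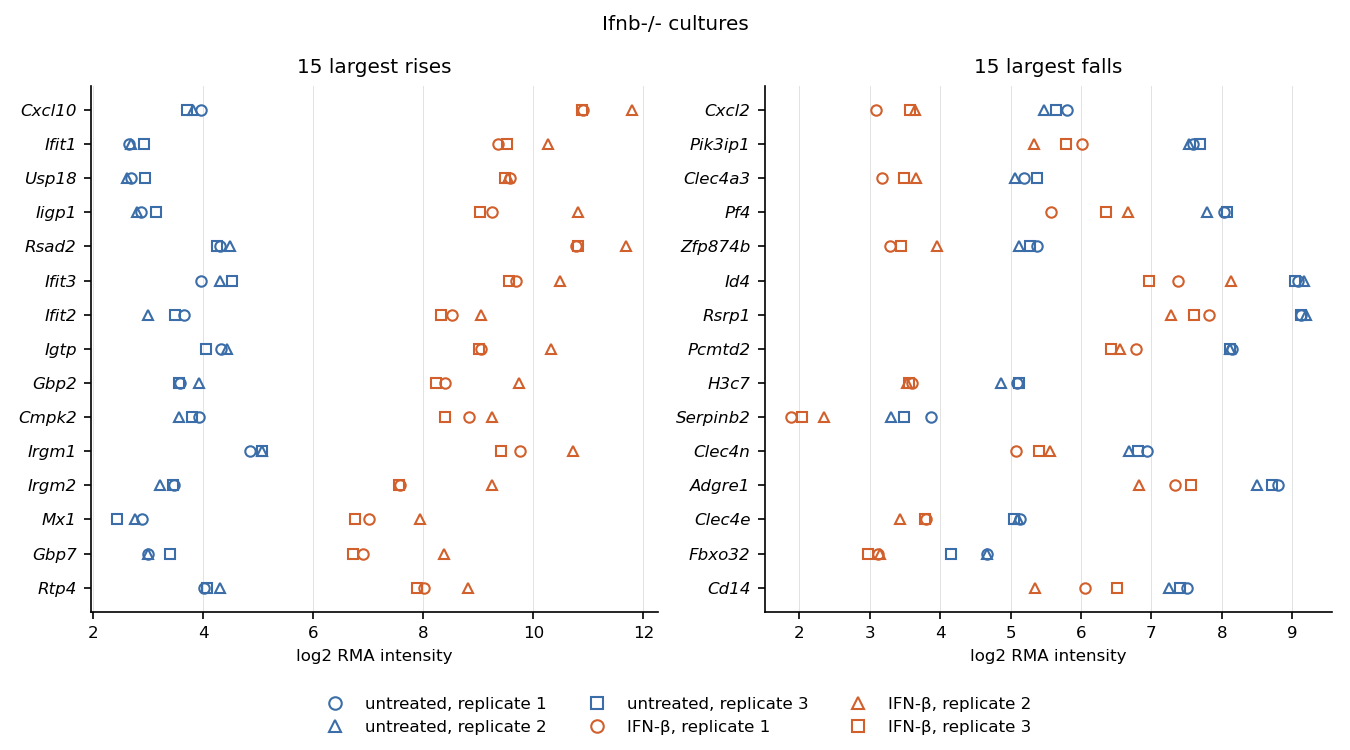
Log2 RMA intensity (x axis) of the 15 genes with the largest rises (left) and falls (right) on each *Ifnb*-/- array, blue for untreated and orange for IFN-β, with the symbol giving the replicate. No gene has treated and untreated arrays that overlap, and treated replicate 2 (triangle) is the highest treated array in 14 of the 15 rises.

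To set these genes beside the DNA before their start sites, windows of 300 bases (250 before to 50 after each start site) were taken from RefSeq for GRCm38.p6 and were found for 14452 of the genes tested. They were searched on both strands for the core letters of the ISRE: TTTC, then 2 bases of any kind, then TTTC. A gene with several windows was counted when any of them held the letters. The letters were present for 9 of the 11 largest risers with a window (81.8%), for 17 of 46 genes that rose at least 4-fold (37.0%), for 11 of 90 that rose less (12.2%), for 4 of 105 that fell (3.81%) and for 524 of all 14452 genes (3.63%). Of all windows of this length, 3.44% held them. The STAT motif GAS, searched as TTC and GAA with 3 bases of any kind between them, was present for 20 of 136 genes that rose (14.7%) and 8.57% of all genes. The letters of both motifs may overlap. These are matches of letters, not sites shown to be bound. The 250 bases before the start site of 5 of the largest risers are given here, 5′ to 3′ on the strand of the gene, with the ISRE letters in capitals, because they show where the letters lie in genes with 4.97 to 7.37 log2 units of change.
*Cxcl10*, chr5:92348890-92349139, minus strand: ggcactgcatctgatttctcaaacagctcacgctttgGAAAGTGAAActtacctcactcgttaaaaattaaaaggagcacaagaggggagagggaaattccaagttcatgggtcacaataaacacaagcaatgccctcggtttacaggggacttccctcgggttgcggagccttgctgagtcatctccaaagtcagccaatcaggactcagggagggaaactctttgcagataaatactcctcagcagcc
*Ifit1*, chr19:34640639-34640888, plus strand: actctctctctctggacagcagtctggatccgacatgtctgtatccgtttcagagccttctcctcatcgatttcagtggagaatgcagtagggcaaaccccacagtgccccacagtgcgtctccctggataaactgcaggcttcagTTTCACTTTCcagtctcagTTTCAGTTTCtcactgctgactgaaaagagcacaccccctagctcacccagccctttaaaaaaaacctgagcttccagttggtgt
*Rsad2*, chr12:26456453-26456702, minus strand: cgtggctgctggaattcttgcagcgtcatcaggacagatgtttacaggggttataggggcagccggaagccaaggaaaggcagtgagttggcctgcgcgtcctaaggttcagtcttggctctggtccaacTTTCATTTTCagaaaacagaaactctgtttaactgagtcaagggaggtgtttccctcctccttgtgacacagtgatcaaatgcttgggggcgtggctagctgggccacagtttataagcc
*Gbp2*, chr3:142620413-142620662, plus strand: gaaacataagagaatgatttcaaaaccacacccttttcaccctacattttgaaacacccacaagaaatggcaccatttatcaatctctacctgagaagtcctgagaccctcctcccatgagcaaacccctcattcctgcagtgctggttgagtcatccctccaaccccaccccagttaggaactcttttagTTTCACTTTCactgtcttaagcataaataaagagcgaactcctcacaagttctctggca
*Irgm1*, chr11:48871421-48871670, minus strand: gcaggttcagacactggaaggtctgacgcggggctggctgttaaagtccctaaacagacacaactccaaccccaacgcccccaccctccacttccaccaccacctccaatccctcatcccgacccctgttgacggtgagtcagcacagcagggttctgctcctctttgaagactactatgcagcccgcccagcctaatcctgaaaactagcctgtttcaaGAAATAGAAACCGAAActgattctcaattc
*Ifit1* holds 2 separate matches, at 104 to 95 and 85 to 76 bases before the start, and *Irgm1* a pair that overlap in a run of 16 bases, 30 to 15 bases before it. *Cxcl10*, *Rsad2* and *Gbp2* hold 1 match each, which begins 213, 120 and 59 bases before the start.

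The response was next followed through the pathway, from receptor to effectors. No gene of the receptor or its kinases passed the test. *Ifnar1* read 7.36 to 7.41 untreated and 7.02 to 7.31 with IFN-β (log2 fold change -0.27, adjusted p = 0.281), *Ifnar2* had 0.17 (adjusted p = 0.445), *Jak1* 0.25 (adjusted p = 0.526) and *Tyk2* -0.09 (adjusted p = 0.736). Of 14 measured genes of receptor and JAK-STAT signaling, 2 rose and none fell, with a median of 0.07, the median of all genes, which became -0.04 with arrays centred on genes. The 2 that rose encode transcription factors. *Irf9*, the DNA-binding subunit of ISGF3, read 4.80, 4.74 and 4.60 untreated and 8.44, 8.13 and 8.14 with IFN-β, a log2 fold change of 3.52 (SE 0.19, adjusted p = 1.03e-06). *Stat3* rose by 1.50 (adjusted p = 0.0249), or 1.13 without treated replicate 2, where it read 9.84 against 8.75 and 8.74. *Stat2*, the ISGF3 subunit that holds IRF9, read 5.38 to 5.53 untreated and 6.63 to 7.16 with IFN-β, so the groups were apart. Its log2 fold change of 1.43 (SE 0.33) narrowly missed the threshold (adjusted p = 0.0513). The 2 probe sets of *Stat2* had changes of 1.43 and 1.87, and 1 of them was called when each was tested on its own.

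Of 9 interferon regulatory factor genes, 4 rose and none fell, with a median log2 fold change of 1.24, and the same number were called without treated replicate 2. Beside *Irf9*, these were *Irf1* (2.69, SE 0.22, adjusted p = 4.73e-05), *Irf7* (2.38, SE 0.43, adjusted p = 0.0173), which drives a second wave of interferon genes, and *Irf8* (2.22, SE 0.22, adjusted p = 0.000247), known from myeloid cells and microglia. *Irf7* had untreated values of 4.77, 4.03 and 3.41, the widest untreated spread among them, and treated values of 6.37, 6.47 and 6.51. Among 16 genes of ISG15 conjugation and feedback inhibitors, 3 rose and none fell, and the median was 0.16. They were *Usp18*, described above, *Socs1* (1.85, SE 0.21, adjusted p = 0.000932) and *Socs3* (0.81, SE 0.15, adjusted p = 0.0196), both inhibitors of JAK kinases. *Socs3* was not called without treated replicate 2 (0.70, adjusted p = 0.0635).

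Effector families differed in how many of their members rose. Among guanylate-binding proteins and immunity-related GTPases, which act on membranes around intracellular pathogens, 9 of 12 measured genes rose and none fell, with a median log2 fold change of 4.01. Without treated replicate 2 the count was 8 and the median 3.46, and the median of the list on that array was 5.12, against 3.58 and 3.35. *Igtp* rose by 5.19 (SE 0.40), *Gbp2* by 5.10 (SE 0.47) and *Irgm1* by 4.97 (SE 0.34), each from an untreated mean of 3.69 to 4.99. Of 6 measured genes among interferon-induced PARPs and *Dtx3l*, 4 rose with a median of 2.70, among them *Parp9* (3.44, SE 0.44, adjusted p = 0.00202), *Parp14* (3.40, SE 0.56, adjusted p = 0.0106) and the partner ubiquitin ligase of PARP9, *Dtx3l* (3.10, SE 0.29, adjusted p = 0.000164). Of 29 Mx, viperin and other antiviral effector genes, 12 rose and none fell with a median of 1.20, but 6 rose without treated replicate 2 (median 1.01). *Mx1*, a GTPase that traps viral nucleocapsids, read 2.89, 2.76 and 2.43, and 7.02, 7.94 and 6.75 with IFN-β (log2 fold change 4.54, adjusted p = 0.000715).

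In the IFIT and IFITM family the change was split by member. *Ifit1*, *Ifit2* and *Ifit3* rose by 5.26 to 6.96 and *Ifitm3*, which blocks viral fusion in endosomes, by 1.62 (adjusted p = 0.0314), while the other 8 of 12 members were not called and the median was 0.33. *Ifitm3* read 7.40, 7.26 and 7.38 untreated and 8.65, 9.52 and 8.74 with IFN-β, and was not called without treated replicate 2 (1.35, adjusted p = 0.0972). Of 10 measured genes among the OAS family and RNase L, 3 rose and none fell with a median of 0.73: *Oasl1* (4.01, SE 0.26, adjusted p = 6.26e-06), *Oasl2* (3.35, SE 0.53, adjusted p = 0.00841) and *Oas1b* (1.72, SE 0.33, adjusted p = 0.0249), the last not called without treated replicate 2 (1.56, adjusted p = 0.0791). The treated values of *Oasl1*, 7.34, 7.41 and 7.50, had an SD of 0.08 (n = 3). Of 16 cytosolic and endosomal nucleic acid sensors and their partners, 5 rose with a median of 0.62, and 2 without treated replicate 2. *Ifih1* (MDA5) had 3.62 (SE 0.46, adjusted p = 0.00176) and *Ddx58* (RIG-I) 2.41 (SE 0.37, adjusted p = 0.00612), the RNA sensors that start interferon production, and both were called with and without that array.

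Over the 7 lists of interferon-stimulated families and regulators together, 41 of 93 measured genes rose and none fell, with a median log2 fold change of 1.25, against 0.07 over all genes. Without treated replicate 2 there were 29 (median 1.01), without treated replicates 1 or 3 there were 30 and 29, and without any 1 of the untreated *Ifnb*-/- arrays 26, with none falling. The methods' t-test with Benjamini-Hochberg adjustment called 25. Treated replicate 2 was the highest array in 37 of the 41.

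**Figure D4:**
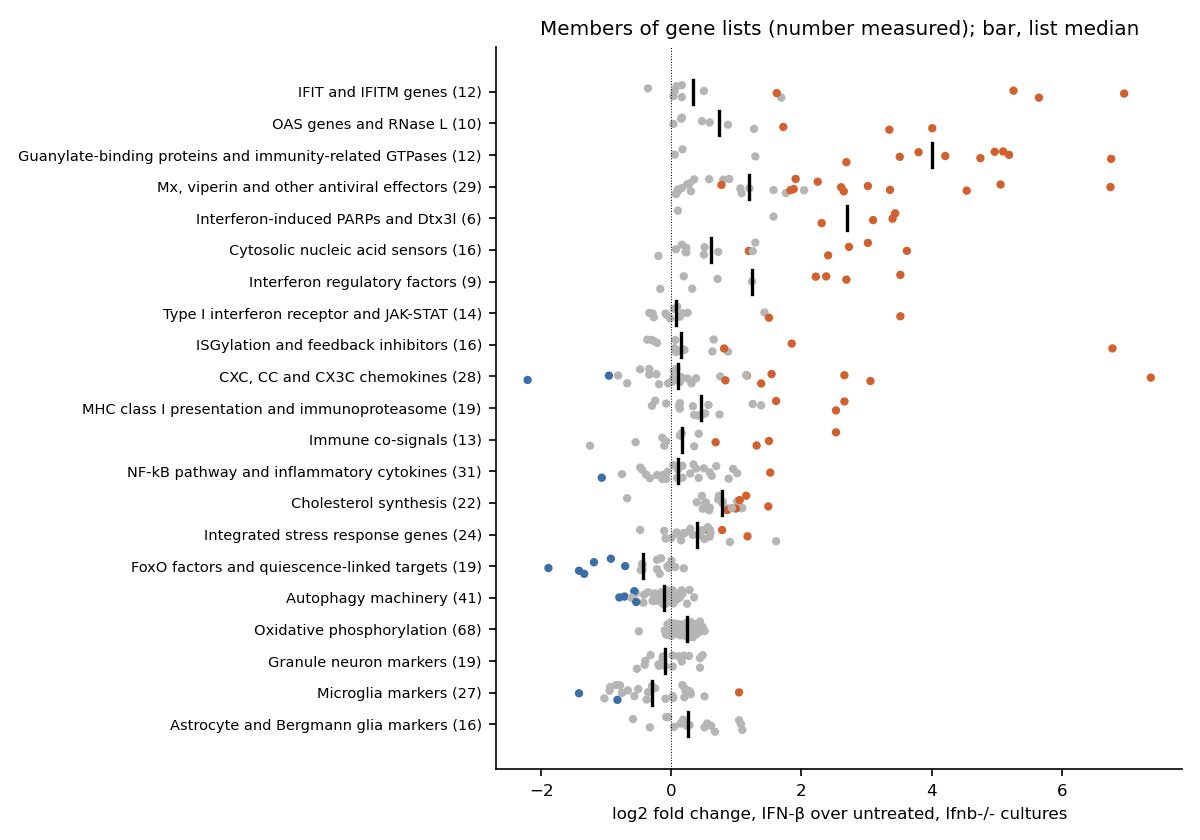
Log2 fold change with IFN-β in *Ifnb*-/- cultures (x axis) of each measured member of 21 gene lists, one point per gene, orange where called higher, blue where called lower and grey where not called, with a bar at the list median. Guanylate-binding proteins and GTPases stand furthest right (median 4.01), and the FoxO list holds called genes on the left side only (median -0.44).

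Secreted and surface immune genes changed in part. Of 28 chemokine genes, 7 rose and 2 fell, with a median of 0.10, and without treated replicate 2 the counts were 5 and 2. Beside *Cxcl10*, *Ccl12*, a monocyte-attracting chemokine, read 3.06, 3.01 and 3.02, and 5.72, 6.51 and 6.04 with IFN-β (3.06, SE 0.30, adjusted p = 0.000234). The 2 that fell were the neutrophil chemokine genes *Cxcl2* and *Cxcl3*, while *Cxcl1* and *Cxcl5*, of the same kind, had 0.01 and -0.82 (adjusted p = 0.971 and 0.619). *Cxcl2* read 5.80, 5.48 and 5.65 untreated and 3.09, 3.64 and 3.57 with IFN-β, the largest fall of all called genes (-2.21, SE 0.32, adjusted p = 0.00462), and *Cxcl3* fell by 0.96 (SE 0.15, adjusted p = 0.0067). Of 19 genes of MHC class I presentation and the immunoproteasome, 3 rose with a median of 0.45: the peptide transporter gene *Tap1* (2.66, SE 0.36, adjusted p = 0.00276) and the immunoproteasome subunits *Psmb9* (2.53, adjusted p = 0.0123) and *Psmb8* (1.61, adjusted p = 0.048), the last not without treated replicate 2 (1.42, adjusted p = 0.127). The 4 probe sets of *Tap1* had changes of 0.01 to 2.66, and 1 of them was called when each was tested on its own. None of 31 constitutive proteasome subunits was called by limma or by the methods' t-test with Benjamini-Hochberg adjustment, which called 0.951% of all genes higher and 0.885% lower. The subunits had 4 higher and 0 lower at an unadjusted limma p under 0.05, as 9.16% and 5.44% of all genes tested had, and a median of 0.17. Of 13 immune co-signal genes, 4 rose and none fell (4 and 1 without treated replicate 2, where *Cd86* fell), among them *Cd274* (PD-L1, a T cell inhibitor) by 2.53 (SE 0.36, adjusted p = 0.00411) and *Lgals9* (galectin-9) by 1.50 (SE 0.23, adjusted p = 0.00612). Of 31 genes of NF-kB signaling and inflammatory cytokines, 1 rose and 1 fell: *Csf1*, the growth factor of microglia and macrophages, by 1.52 (SE 0.22, adjusted p = 0.00521), and *Saa3*, an acute phase protein, by -1.07 (SE 0.22, adjusted p = 0.033), the latter not called without treated replicate 2 (adjusted p = 0.101). *Csf1* had 4 probe sets with changes of 0.24 to 1.52, of which 1 was called on its own.

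The genes that fell most included several known from macrophages and microglia. The C-type lectin receptor genes *Clec4a3*, *Clec4n* (Dectin-2) and *Clec4e* (Mincle) fell by 1.77, 1.46 and 1.43 log2 units, with SEs of 0.31, 0.17 and 0.23 and adjusted p = 0.0159, 0.00104 and 0.00987. The 2 probe sets of *Clec4e* had changes of -1.43 and -0.10. *Clec4n* read 6.94, 6.68 and 6.81 untreated and 5.07, 5.56 and 5.41 with IFN-β, so that every treated culture was more than 1 log2 unit below every untreated one. *Pf4*, a chemokine of platelets and of macrophages at the brain's borders, fell by 1.76 (SE 0.32, adjusted p = 0.0184). *Adgre1*, a surface receptor that marks macrophages, fell by 1.43 and *Cd14*, the lipopolysaccharide co-receptor, by 1.42, with adjusted p = 0.0473 and 0.0449, and neither was called without treated replicate 2 (adjusted p = 0.127 and 0.113). In bulk cultures fewer cells of a type and less RNA per cell cannot be told apart. The summed intensity of all 27 measured microglia markers was 4630 to 5210 on untreated and 3160 to 3670 on treated arrays, and its part in these falls was not tested. A sum weighs bright genes most. The brightest marker, *Lyz2*, read 10.85, 10.66 and 10.85 untreated and 9.68, 9.98 and 9.87 with IFN-β, and was not called (adjusted p = 0.151). The mean log2 intensity of the 27 markers was 6.02 to 6.13 on untreated and 5.73 to 5.87 on treated arrays. Of these markers 1 rose, 2 fell and 24 were not called, with a median of -0.30. At an unadjusted p under 0.05 limma had 2 higher and 9 lower, against 9.16% and 5.44% of all genes tested. Without treated replicate 2, 1 rose and 1 fell, the latter *Itgam* (adjusted p = 0.0286). Among markers not called with all arrays, *Aif1* had -1.03, *Itgam* -0.76, *Csf1r* -0.57, *Tyrobp* -0.51 and the complement gene *C1qa* 0.02 (adjusted p = 0.0954, 0.231, 0.0662, 0.236 and 0.976). The one that rose was *Fcgr1*, an interferon-inducible IgG receptor, at 5.73, 5.06 and 5.48 untreated and 6.46, 6.36 and 6.57 with IFN-β (1.04, SE 0.16, adjusted p = 0.00606).

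Some genes linked to FoxO transcription factors and cell quiescence fell. FoxO factors are active when PI3K and AKT signaling is low. Of 19 measured genes of this list, 6 fell and none rose, with a median log2 fold change of -0.44, and the count was 6 without treated replicate 2 as well (median -0.30). *Pik3ip1*, which encodes an inhibitor of PI3K, read 7.59, 7.53 and 7.69 untreated and 6.01, 5.33 and 5.79 with IFN-β (-1.89, SE 0.19, adjusted p = 0.000334). *Txnip*, the thioredoxin inhibitor, read 8.87, 8.62 and 8.66, and 7.41, 7.30 and 7.42 (-1.34, SE 0.16, adjusted p = 0.00104), and *Ccng2*, a cyclin that slows the cell cycle, 9.88, 9.86 and 9.85, and 8.75, 8.58 and 8.71 (-1.19, SE 0.17, adjusted p = 0.00426). In all 3 every treated array lay more than 1 log2 unit below every untreated one. The insulin receptor substrate gene *Irs2* fell by 0.93 (SE 0.13, adjusted p = 0.00276) and the ubiquitin ligase gene *Fbxo32* (atrogin-1) by 1.42 (SE 0.25, adjusted p = 0.0165). *Fbxo32* was dim, at 4.66, 4.67 and 4.16 untreated and 3.12, 3.14 and 2.98 with IFN-β. Its 3 probe sets had changes of -1.42 to -0.31, and 1 of them was called on its own. The core letters of FoxO binding, GTAAACA on either strand, were present in a RefSeq window of 16 of 105 genes that fell (15.2%), of 7 of 136 that rose (5.15%) and of 491 of all 14452 genes (3.40%). Of the 6 genes of the FoxO list that fell, 5 had a window, and 2 of these held the letters. The windows of *Pik3ip1* and *Ccng2* did not hold them. One of the 16 was *Txnip*, whose 250 bases before the start site are given with these letters in capitals, 121 to 115 bases before it.
*Txnip*, chr3:96557707-96557956, plus strand: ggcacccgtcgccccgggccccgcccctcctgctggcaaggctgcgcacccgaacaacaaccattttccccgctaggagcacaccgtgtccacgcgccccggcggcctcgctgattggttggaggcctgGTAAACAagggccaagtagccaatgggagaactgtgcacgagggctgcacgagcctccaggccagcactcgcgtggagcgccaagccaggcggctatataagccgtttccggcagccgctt
The others included *Sesn1*, of the same list, at -0.71, the transcriptional repressor genes *Hbp1* (-1.03, SE 0.13, adjusted p = 0.00129) and *Mxi1* (-0.47, SE 0.09, adjusted p = 0.0305), and *Crbn* (-0.97, SE 0.20, adjusted p = 0.0306), chosen after their values were seen. The list of mTOR signaling, downstream of AKT, had 0 of 28 called, with a median of 0.02 that became -0.08 with arrays centred on genes. At an unadjusted p under 0.05 limma had 2 higher and 3 lower, against 9.16% and 5.44% of all genes tested. The methods' t-test with Benjamini-Hochberg adjustment called none of the 28 either.

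The genes of autophagy and lysosomes that were called all fell. Of 41 genes of the autophagy machinery 4 fell (9.76%, against 0.742% of all genes), with a median of -0.11 over the list. At an unadjusted limma p under 0.05, 1 was higher and 10 were lower, against 9.16% and 5.44% of all genes tested. The 4 that fell were *Pik3c3*, the lipid kinase that starts autophagosomes (-0.57, SE 0.10, adjusted p = 0.0195), *Ulk2*, an initiating kinase (-0.72, SE 0.14, adjusted p = 0.029), *Gabarapl1*, of the LC3 family (-0.54, SE 0.11, adjusted p = 0.0352), and *Calcoco1*, a cargo receptor (-0.80, SE 0.18, adjusted p = 0.0451). Without treated replicate 2 only *Pik3c3* was called. *Pik3c3* read 6.74, 6.57 and 6.63 untreated and 6.10, 6.09 and 6.03 with IFN-β. Of 14 cathepsins, *Ctsz* fell (-0.73, SE 0.16, adjusted p = 0.0438), and of 46 lysosomal hydrolases and membrane proteins *Gusb* (-0.76, adjusted p = 0.0202) and *Laptm5* (-0.83, adjusted p = 0.0252) fell. None of these 3 was called without treated replicate 2, where *Ctsc* was the one cathepsin called, also lower, and 1 of the 5 probe sets of *Laptm5* had a change of 0.07. In oxidative phosphorylation 0 of 68 genes were called by limma or by the methods' t-test with Benjamini-Hochberg adjustment. At an unadjusted limma p under 0.05, 14 were higher and 0 lower, against 9.16% and 5.44% of all genes tested. The median of this list was 0.24. That median was 0.31 and 0.40 on treated replicates 1 and 3 and 0.00 on replicate 2.

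Cholesterol synthesis genes rose in part, and more of them were called without treated replicate 2. The list of 22 measured genes also holds some that do not make cholesterol, such as *Ch25h* and *Abca1*. Of the 22, 5 rose, *Ch25h* among them, and none fell, with a median log2 fold change of 0.79. Without treated replicate 2, 15 rose, with a median of 1.02. On treated replicates 1 and 3, 21 of the 22 genes lay above all untreated arrays, and on replicate 2 there were 14. The share of all genes above the untreated arrays was not computed for single treated arrays. All 3 treated arrays lay above all untreated ones for 59.1% of the 22, against 20.3% of all genes. *Hsd17b7*, of the late steps of the pathway, read 6.96, 7.03 and 7.02 untreated and 8.69, 8.07 and 8.70 with IFN-β (1.49, SE 0.17, adjusted p = 0.00104). Its 4 probe sets had changes of 0.19 to 1.49, and 1 of them was called on its own. *Idi1*, the isopentenyl diphosphate isomerase, rose by 1.05 (SE 0.23, adjusted p = 0.0447), *Msmo1*, which removes methyl groups from sterols, by 0.99 (SE 0.19, adjusted p = 0.0252), and *Sc5d*, a sterol desaturase, by 0.86 (SE 0.16, adjusted p = 0.0195). The 2 probe sets of *Msmo1* had changes of 0.71 and 0.99 and the 3 of *Sc5d* 0.15 to 0.86, with 1 called on its own in each gene. *Ch25h* makes 25-hydroxycholesterol, an antiviral sterol that holds back cholesterol synthesis, and it rose from 3.79, 3.83 and 3.77 to 4.92, 4.86 and 5.08 (1.15, SE 0.21, adjusted p = 0.0173), with replicate 2 close to the others.

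The next genes were chosen after their values were seen, to show how replicate 2 differed. *Mvd*, of the mevalonate steps, read 7.23 to 7.29 untreated, 8.87 and 8.96 on treated replicates 1 and 3, and 7.24 on replicate 2. Its change was 1.09 (adjusted p = 0.23) with all arrays and 1.65 (SE 0.27, adjusted p = 0.0135) without replicate 2. *Mvk*, *Fdft1*, *Lss* and *Dhcr7* had 1.42, 1.45, 1.23 and 1.31 without it, with adjusted p of 0.00674, 0.00635, 0.0116 and 0.0198, against 0.119, 0.0901, 0.164 and 0.165 with all arrays. The efflux transporter gene *Abca1* went the other way, at 8.50 to 8.53 untreated, 7.33 and 7.25 on replicates 1 and 3 and 8.92 on replicate 2, and was not called with or without replicate 2 (adjusted p = 0.495 and 0.148). Whether the astrocyte and cell cycle genes that set this array apart account for the difference was not tested.

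Of stress-linked genes, 3 of 24 in the integrated stress response rose (median 0.39), or 4 without treated replicate 2, with *Nupr1* added: *Mthfd2*, a mitochondrial folate enzyme, by 1.17 (SE 0.19, adjusted p = 0.00939), *Cebpb*, a transcription factor, by 0.78 (SE 0.14, adjusted p = 0.0165) and *Trib3*, a pseudokinase, by 0.56 (SE 0.11, adjusted p = 0.0249). Of 28 immediate early genes 2 rose, *Atf3* by 1.17 (SE 0.12, adjusted p = 0.000265) and *Junb* by 0.71 (SE 0.12, adjusted p = 0.0151). *Atf3* read 5.78, 5.93 and 5.95 untreated and 7.03, 7.13 and 7.00 with IFN-β, so its cultures within a group were nearly alike. In apoptosis 2 of 40 genes fell and none rose, against 0.742% and 0.929% of all genes. The median of the list was 0.16, and the change was positive in 29 genes and negative in 11. At an unadjusted p under 0.05 limma had 7 higher and 5 lower, against 9.16% and 5.44% of all genes tested. *Bmf*, which encodes a pro-apoptotic BH3 protein, fell by 0.77 (SE 0.13, adjusted p = 0.0136), and its 3 probe sets had changes of -0.77 to -0.14, with 1 called on its own. *Casp2*, a caspase, fell by 0.54 (SE 0.11, adjusted p = 0.0344) and was not called without treated replicate 2 (adjusted p = 0.0912). *Cdkn1a* (p21), which halts the cell cycle, was the one of 34 cell cycle genes to rise, at 9.62, 9.71 and 9.67 untreated and 10.29, 10.33 and 10.40 with IFN-β (0.67, SE 0.14, adjusted p = 0.0318). The median of that list was 0.49 with all arrays and 0.08 without treated replicate 2, where *Cdkn1a* had adjusted p = 0.0774.

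Few genes of neuronal function were called. None of the 19 granule neuron markers, 28 genes of synaptic vesicles, 12 GABA-A receptor subunits or 70 genes of neurite outgrowth and axon guidance was called by limma. At an unadjusted p under 0.05 limma had 1, 0, 1 and 2 of them higher and 3, 3, 0 and 3 lower, against 9.16% and 5.44% of all genes tested. The methods' t-test with Benjamini-Hochberg adjustment called 1 granule neuron marker lower and none of the others. The medians of the lists were -0.10, -0.01, 0.07 and -0.03, and that of the GABA-A receptor subunits changed sign with arrays centred on genes. Of 21 glutamate receptor genes the kainate receptor gene *Grik2* fell, from 7.72, 7.72 and 7.70 to 6.83, 6.35 and 6.52 (-1.15, SE 0.22, adjusted p = 0.0224). Of 37 potassium channel genes *Kcnn2* (SK2) fell by 1.13 (SE 0.22, adjusted p = 0.0252) and *Kcnk2* (TREK-1) by 0.94 (SE 0.19, adjusted p = 0.0277). *Grik2* and *Kcnn2* were not called without treated replicate 2 (adjusted p = 0.0741 and 0.0747). The summed intensity of 11 Purkinje cell and interneuron markers was 2910 to 2990 on untreated and 1600 to 2170 on treated arrays, and its part in these falls was not tested. None of the 11 was called with all arrays, and their median log2 fold change was -0.50. The change was negative in 10, from -0.05 in *Calb1* to -0.89 in the bright gene *Gad1* and -1.28 in *Car8*. It was positive in *Eomes* (1.06), which was called higher without treated replicate 2 (0.61, adjusted p = 0.0449). Of 26 genes of neurotrophin signaling 2 fell, *Irs2* and the docking protein gene *Gab1* (-0.66, SE 0.11, adjusted p = 0.0113). *Mobp*, a myelin gene, fell from 6.09, 5.62 and 6.03 to 4.75, 4.71 and 4.80 (-1.16, SE 0.15, adjusted p = 0.00227), although 1 of its 5 probe sets had 0.10. The summed intensity of 14 oligodendrocyte markers was 2910 to 3200 on untreated and 2090 to 2810 on treated arrays, and its part in this fall was not tested.

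The response of *Ifnb*+/+ CGNs to the same dose, on 6 other arrays, was set beside these values, since it is the comparison that shows whether cultures that lack the gene for IFN-β respond differently. Of the 169 genes that rose in *Ifnb*-/-, 159 had a change of the same sign in *Ifnb*+/+, with medians of 1.31 and 1.42, and of the 135 that fell it was 128, with medians of -0.77 and -0.44. Across the 304 genes the correlation of the log2 fold changes was 0.947, and over all 18193 genes it was 0.497. Both describe genes that are not independent, and the 304 were chosen in *Ifnb*-/-. None of the 304 was called for the difference between the genotypes (smallest adjusted p = 0.0937, for *Clec4n*), while 4 of all genes tested (0.022%) were. Of the 41 interferon-stimulated genes that rose, 38 had the larger change in *Ifnb*+/+, with medians of 4.62 and 3.35, and all 41 read lower with IFN-β in *Ifnb*-/- (median 7.34, against 8.87). Without IFN-β, 37 of the 41 also read lower in *Ifnb*-/- (median 3.90, against 4.31), and this difference between untreated cultures was not tested. For the difference between the responses of the genotypes, no member of those lists was called by the interaction test of limma (smallest adjusted p = 0.32). *Dtx3l* rose by 5.18 in *Ifnb*+/+ and 3.10 in *Ifnb*-/-, and *Cxcl10* by 7.72 and 7.37.

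**Figure D5:**
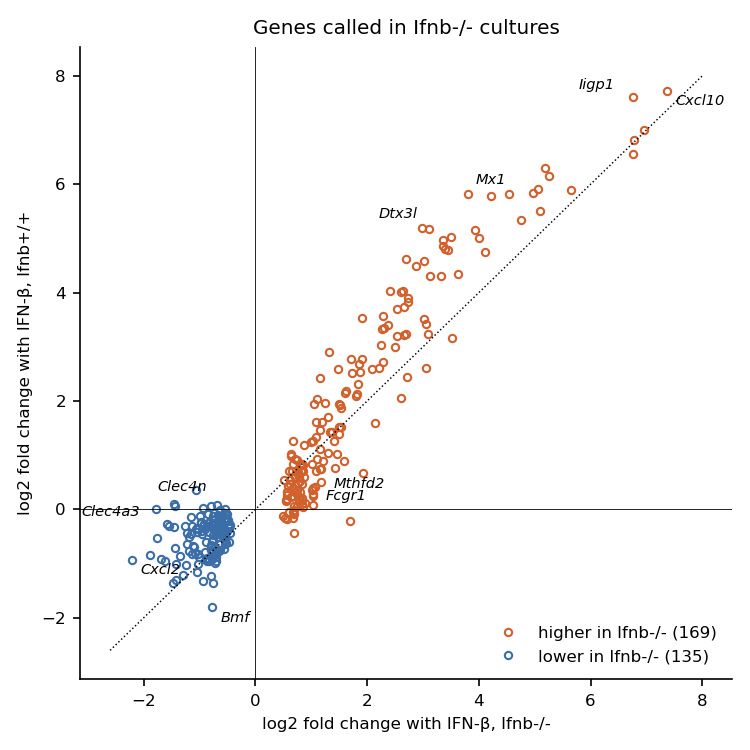
Log2 fold change with IFN-β in *Ifnb*+/+ (y axis) against that in *Ifnb*-/- (x axis) for the 304 genes called in *Ifnb*-/-, one point per gene, with a dotted line where both are equal. Most genes that rose lie above the line, and of the 135 that fell, 26 had the larger change in *Ifnb*+/+ and the others, such as *Clec4n* (-1.46 and 0.10), in *Ifnb*-/-.

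The macrophage and acute phase genes that fell had a range of changes in *Ifnb*+/+. *Clec4a3*, *Clec4n*, *Clec4e* and *Saa3* had changes of -0.00, 0.10, 0.06 and 0.36 in *Ifnb*+/+, against -1.77, -1.46, -1.43 and -1.07 in *Ifnb*-/-. For *Clec4n* the test of the difference gave adjusted p = 0.0937, and for the other 3 adjusted p = 0.323, so a difference between the genotypes was not shown for them. *Pf4*, *Adgre1* and *Cd14* had -0.52, -0.72 and -1.01 in *Ifnb*+/+, against -1.76, -1.43 and -1.42. Over the 27 microglia markers the median was -0.49 in *Ifnb*+/+, with 9 called lower, and -0.30 in *Ifnb*-/-, with 2 called lower.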

How the data were processed

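Total RNA from 12 cultures (4 groups of 3) was measured on Affymetrix mouse genome arrays, 1 per culture. Per the labels and the methods, the authors used Arraystar for quantile normalization and RMA, and the deposited values are log2 intensities of 45037 probe sets, which were not normalized again. Array annotation assigned 34945 probe sets to 1 gene, 932 to several and 9160 to none, and the last 2 kinds were left out. Each gene took its values from its brightest remaining probe set, by the mean of the 12 arrays. RMA compresses low values, which lowers fold changes of genes near the bottom of the scale, and the number of arrays limits the precision.

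A linear model of 4 group means was fitted to all 12 arrays with limma 3.58.1 under R 4.3.3, leaving 8 residual degrees of freedom before moderation of the variances. P-values were adjusted by Benjamini-Hochberg over 18193 genes, and genes were called at an adjusted p under 0.05. The methods' unpaired two-tailed test at 1.5-fold was run as an alternative, called the methods' t-test. All p-values are two-sided. The gene lists (42, with 991 of 1132 members measured) and the comparison itself were chosen with earlier results of these data known, so lists are described by counts and medians. The named genes were the 15 largest changes per direction, up to 4 called members per list, genes of the interferon receptor pathway, genes called for the difference between genotypes, and cell type markers, beside a few said to be chosen after their values were seen. Of 89 called genes so named, 9 were read from probe sets marked as matching related transcripts (*Clec4n*, *Tlr3*, *Socs3*, *Cd40*, *Trib3*, *Gabarapl1*, *Laptm5*, *Hsd17b7* and *Bmf*). The fit was tested on simulated data. Alternatives were other probe set summaries, a filter on dim genes, other scalings, array weights, a trend in the variance, fewer arrays, other thresholds, the replicate number as a block, and each array left out.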

Additional observations from a re-analysis of the deposited data

Results flagged for a closer look

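For 4 genes the change with IFN-β differed between the genotypes by the interaction test of limma, and in all 4 it was near 0 in *Ifnb*-/- and a fall in *Ifnb*+/+. *Adam8*, a metalloprotease gene, had -0.29 in *Ifnb*-/- and -2.03 in *Ifnb*+/+, a difference of -1.74 (SE 0.20, adjusted p = 0.012). *Trem2*, a lipid receptor of microglia, had 0.23 and -1.50, a difference of -1.73 (SE 0.20, adjusted p = 0.012). *Slc37a2*, a sugar phosphate transporter gene, had 0.09 and -1.15, a difference of -1.24 (SE 0.17, adjusted p = 0.0414), and *Ctsd*, the lysosomal protease cathepsin D, -0.06 and -1.13, a difference of -1.07 (SE 0.15, adjusted p = 0.0414). Untreated *Ifnb*-/- cultures already read lower than untreated *Ifnb*+/+ cultures, as for *Trem2* at 5.75, 5.54 and 5.67 against 6.79, 6.75 and 6.49. These 4 are 0.022% of the genes tested, and 0 were called without any 1 of the untreated *Ifnb*-/- arrays, without treated *Ifnb*-/- replicate 2 or 3, without treated *Ifnb*+/+ replicate 2, or in the fit blocked on replicate number.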

How the results depend on the processing

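None of the 304 called genes changed direction in any alternative fitted by gene (230 of them could be followed with genes of a mean of at least 5). As their treated and untreated arrays did not overlap, leaving out or weighting arrays could not reverse a sign, so those fits say nothing on direction. Other summaries of probe sets and other scalings could have reversed it. Of the 89 called genes named, 46 had several probe sets, and in 44 of these all had the same sign, but not in *Laptm5* and *Mobp*. Counts of calls depended on which arrays set the spread. With 169 genes higher and 135 lower by limma over all arrays, leaving out each array in turn gave 63 to 342 higher and 19 to 363 lower, and 0 to 1237 for the difference between genotypes (4 with all arrays). Without untreated *Ifnb*-/- replicates 1, 2 or 3 there were 64, 63 and 63 higher and 19, 25 and 22 lower, without treated *Ifnb*-/- replicates 1, 2 or 3 there were 95, 137 and 77 higher and 38, 64 and 41 lower, and without untreated *Ifnb*+/+ replicates 1, 2 or 3 there were 342, 247 and 114 higher and 363, 216 and 61 lower. The 1237 came without untreated *Ifnb*+/+ replicate 2, and 61 without treated *Ifnb*+/+ replicate 1. Only the *Ifnb*-/- arrays gave 645 higher and 631 lower, and array weights 2523 and 1439, with 4103 for the difference. At an adjusted p under 0.01 there were 66 and 22, with 0 for the difference, at an unadjusted p under 0.05 and 1.5-fold 446 and 352, with 1733 for the difference, and by the methods' t-test at its threshold 392 and 366, or 173 and 161 after Benjamini-Hochberg adjustment. Each probe set on its own gave 216 lower, centring on the median over genes, added after seeing the data, 223 lower, and 2 were called for the difference with each probe set on its own, with genes of a mean of at least 5, and with centring over probe sets. Of the 89 called genes named, 46 to 89 were still called with 1 array left out, with 46 each time an untreated *Ifnb*-/- array was the one left out. The cause of these differences was not tested.

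Replicate numbers are shared between groups, but no source says that they mark a shared litter or day. Deviations of arrays with the same number correlated weakly, at 0.073, 0.069 and 0.051, in *Ifnb*-/-, each array best with its own number. In *Ifnb*+/+ they correlated at 0.298, 0.156 and 0.065, but untreated replicate 2 correlated better with treated replicate 3 (0.182). Sex-linked genes differed between *Ifnb*-/- arrays of the same number. In order of replicate, *Xist* read 9.37, 9.85 and 9.62 untreated and 10.64, 4.34 and 10.79 treated. *Kdm5d* read 5.25, 5.28 and 5.16 untreated and 3.45, 5.25 and 3.52 treated. Whether the numbers mark pairs was not tested further. With the replicate number as a block, 161 genes were higher, 105 lower and 0 called for the difference, and with the block in the *Ifnb*-/- arrays alone, added after seeing the data, 450 were higher and 432 lower.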

Other observations

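Among called genes outside the lists, chosen after their values were seen, both measured metallothionein genes, which bind zinc and copper, rose: *Mt2* from 9.49, 9.29 and 9.49 to 10.63, 10.83 and 10.72 (log2 fold change 1.30, SE 0.15, adjusted p = 0.00104) and *Mt1* by 0.87 (SE 0.14, adjusted p = 0.0105). *Osmr*, the oncostatin M receptor gene, rose by 2.26 (SE 0.48, adjusted p = 0.0392) and *Il1r1*, the interleukin-1 receptor gene, by 1.46 (SE 0.30, adjusted p = 0.0325), both highest on treated replicate 2, at 7.80 and 6.86, against 5.82 and 5.85, and 5.71 and 5.79. *Shh*, the morphogen that drives granule cell precursors to divide, read 4.85, 4.26 and 4.90 untreated and 5.77, 5.94 and 5.62 with IFN-β (1.11, SE 0.17, adjusted p = 0.00612).

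Of falls outside the lists, also chosen after their values were seen, 3 were in receptor genes. *Erbb4*, the neuregulin receptor, read 4.89, 4.90 and 4.73 untreated and 3.76, 3.69 and 3.37 with IFN-β (-1.23, SE 0.17, adjusted p = 0.00312). The galanin receptor gene *Galr1* fell by 1.26 (SE 0.20, adjusted p = 0.00987) and the neuropeptide Y receptor gene *Npy1r* by 0.61 (SE 0.11, adjusted p = 0.0196), with changes of -0.43, -0.31 and -0.16 for the 3 genes in *Ifnb*+/+. The summed intensity of 11 Purkinje cell and interneuron markers, none of them called with all arrays, was 2910 to 2990 on untreated and 1600 to 2170 on treated *Ifnb*-/- arrays. Its part in these falls was not tested.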
